A study of Arabidopsis thaliana with 36 samples.

Results

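The mitochondrial dysfunction response genes followed here are 10 Arabidopsis genes taken by their locus identifiers from a count table of 32833 genes: NAC017 (AT1G34190), NAC013 (AT1G32870), CRF6 (AT3G61630), AOX1A (AT3G22370), UPOX (AT2G21640), OM66 (AT3G50930), AT2G18193, UGT74E2 (AT1G05680), DTX1 (AT2G04040) and DTX3 (AT2G04050). All 10 passed the filter on low counts in shoots, in roots and in both tissues together. The genes were selected on results of these same libraries. Which values chose each gene is not recorded, but UGT74E2 and DTX3 had already been seen to be high in shoots after 2 h and 5 h of PSK. Values for shoots with PSK are therefore all taken as used in the choice and given as a description with no p. How many genes met the threshold there is counted, and nothing is read from the count. Comparisons of roots, of genotypes and of Col-0 tissues have tests, although results from these libraries were known when the genes were chosen.

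The libraries came from shoots and roots of 11-day-old plants, in 12 groups of 3. In each tissue the groups were tpst exposed to PSK at 10 nM (lasting 30 min, 2 h, 5 h or 11 days), untreated tpst, and untreated Col-0, the wild type. The tpst allele is a T-DNA insertion in the gene of the tyrosylprotein sulfotransferase, so these plants lack other sulfated peptides as well as PSK, a sulfated pentapeptide hormone. For the exposures of hours, the liquid medium with sucrose was exchanged for fresh medium holding PSK, and untreated plants had no exchange, so PSK and the change of medium cannot be told apart. Plants of the 11 day group germinated in PSK. Each replicate pooled seedlings that were then divided into shoot and root, and all comparisons with PSK in a tissue share the same 3 untreated tpst libraries.

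When the mitochondrial electron transport chain of a plant cell is inhibited, nuclear genes respond through retrograde signaling. NAC017 and NAC013 are NAC transcription factors held in the membrane of the endoplasmic reticulum. They are released by cleavage and bind the mitochondrial dysfunction motif in target promoters, and NAC013 is itself such a target. The best known target is AOX1A, an alternative oxidase that passes electrons from ubiquinol to oxygen without complexes III and IV. The other targets include mitochondrial proteins, an auxin glucosyltransferase and efflux carriers.

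Per the count table and TAIR10, the genes lie on chromosome 1 (UGT74E2 at 1703002 to 1704838, NAC013 at 11911631 to 11913947 and NAC017 at 12451405 to 12454542), on chromosome 2 (DTX1 at 1334270 to 1336550, DTX3 at 1337180 to 1339468, AT2G18193 at 7917413 to 7919345 and UPOX at 9254378 to 9255743) and on chromosome 3 (AOX1A at 7906521 to 7908746, OM66 at 18929526 to 18932181 and CRF6 at 22804998 to 22806527). UGT74E2, AT2G18193, DTX1 and DTX3 are on the minus strand and the others on the plus strand.

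The motif was searched on both strands as CTTG, 5 bases of any kind and then CAAG, a pattern that is its own reverse complement, or with CACG as its end, in the RefSeq TAIR10.1 genome, whose coordinates for these genes are those of TAIR10, at the gene starts of the count table. In the window from 250 bases before to 50 bases after the start, 6 of the 10 genes held at least 1 match (NAC017, AOX1A, AT2G18193, DTX3, UGT74E2 and UPOX), against 1.42% of 32546 nuclear genes. In the 1000 bases before the start, 5 of the 10 held one (NAC017, AT2G18193, DTX3, CRF6 and UPOX), against 4.36% of the same genes. The matches are printed because they are the sequence feature that the gene set is known for. For the same reason nothing is read from the shares. The motif is in capitals, 8 bases on each side are in lower case, and each line reads 5′ to 3′ on the strand of its gene.
NAC017, chr1:12451287-12451315, plus strand: acctctgtCGTGTCAGACAAGaatgttgg
CRF6, chr3:22804448-22804476, plus strand: ataagagaCTTGGTCTCCAAGcaaaagat
CRF6, chr3:22804692-22804720, plus strand: aaaagttgCTTGGAGACCAAGctatagat
AOX1A, chr3:7906510-7906538, plus strand: atctagctCTTGGCGACCACGcaagtatc
AOX1A, chr3:7906537-7906565, plus strand: tcttccatCTTGCTCTCCAAGaaaaatct
UPOX, chr2:9254319-9254347, plus strand: tttagtaaCTTGCTCTCCAAGgagatcta
AT2G18193, chr2:7919415-7919443, minus strand: gtaatttcCTTGCACCGCACGcttccttc
UGT74E2, chr1:1704805-1704833, minus strand: ccgcacatCTTGGTCGCCACGgaacatag
DTX3, chr2:1339663-1339691, minus strand: tattagaaCTTGATTCCCAAGtaatcttt
DTX3, chr2:1339604-1339632, minus strand: tatacgaaCTTGGTCCCCAAGtatatttc
The 13 capitals of UPOX and of the second AOX1A match are the same letters, and NAC017 holds its match on the strand opposite to the gene. Counted from the first base of the gene as base 1, with upstream bases negative, the matches began at -110 in NAC017, at -542 and -298 in CRF6, at -3 and 25 in AOX1A, at -51 in UPOX, at -90 in AT2G18193, at 14 in UGT74E2, and at -215 and -156 in DTX3. DTX1 and DTX3 lie side by side on chromosome 2 with 629 bases between them, and their 250 upstream bases are printed to set a promoter with 2 matches beside one with none.
DTX3, chr2:1339469-1339718, minus strand: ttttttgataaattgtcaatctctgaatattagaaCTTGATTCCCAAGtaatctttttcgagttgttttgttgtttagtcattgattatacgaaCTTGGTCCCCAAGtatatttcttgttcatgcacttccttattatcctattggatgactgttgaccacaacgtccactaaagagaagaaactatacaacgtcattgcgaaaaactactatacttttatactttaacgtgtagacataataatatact
DTX1, chr2:1336551-1336800, minus strand: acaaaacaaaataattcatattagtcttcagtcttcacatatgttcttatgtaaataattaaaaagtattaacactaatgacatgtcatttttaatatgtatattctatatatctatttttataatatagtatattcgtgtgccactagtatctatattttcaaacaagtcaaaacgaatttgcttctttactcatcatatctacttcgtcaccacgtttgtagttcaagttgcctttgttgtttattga
OM66, DTX1 and NAC013 had no match in either window, which says only that these letters are not there.

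**Figure D1:**
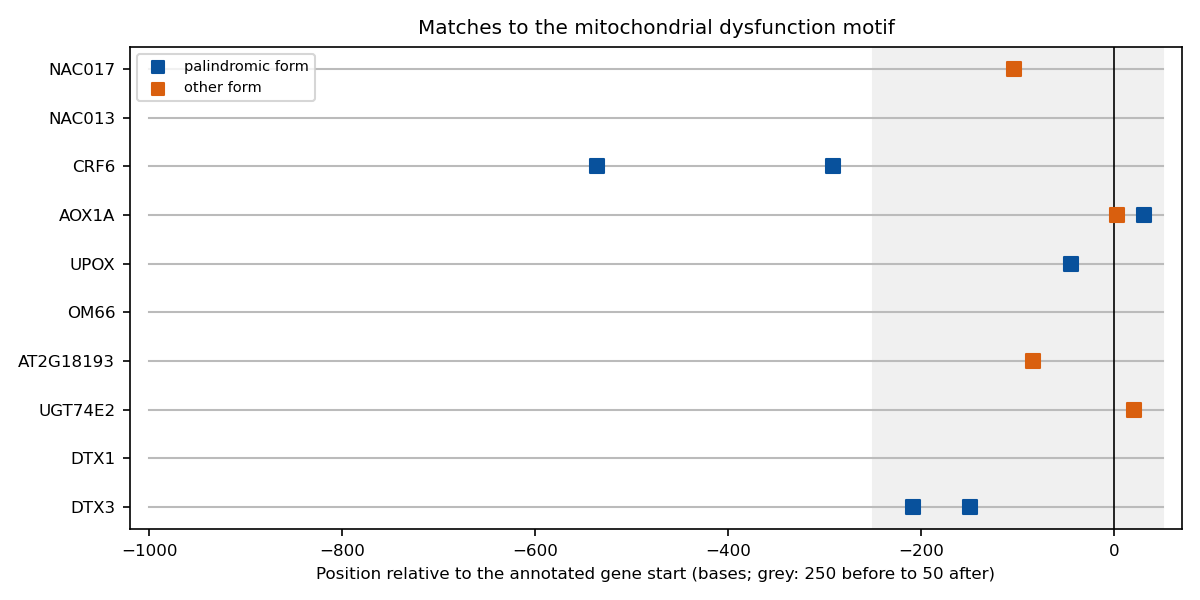
Position of each match to the mitochondrial dysfunction motif in bases from the annotated start of the 10 genes, with one line per gene and the window from 250 before to 50 after the start in grey. The palindromic form (blue) is in CRF6, AOX1A, UPOX and DTX3, the other form (orange) in NAC017, AOX1A, AT2G18193 and UGT74E2, and 3 genes have no match.

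Library totals ran from 21559655 to 36921510 counts. TPST had 5.90 to 9.48 CPM in tpst shoots against 17.1 to 20.0 CPM in Col-0 shoots, and 9.96 to 14.4 CPM in tpst roots against 23.7 to 24.9 CPM in Col-0 roots. Levels below are in CPM, counts scaled to library size, with all 36 libraries normalized together. Tissue markers matched the labels: 7 root markers summed to 5217 to 8896 CPM in roots and 657 to 1225 CPM in shoots, and 8 photosynthesis genes summed to 175 to 1555 CPM in roots and 31832 to 59600 CPM in shoots. At most 1 photosynthesis gene was at 0 in any root library. The highest root sum, 1555 CPM, was in the third untreated tpst library, against 178 and 208 CPM in the other 2. Root comparisons with untreated tpst were also made without this library, as given below, and why its sum was high was not tested.

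In shoots, the log2 fold change with PSK was above 1 in 8 of the 10 genes at 5 h, from 1.79 for CRF6 to 6.76 for UGT74E2, and in the same 8 at 11 days. A call needed an adjusted p under 0.05 in edgeR together with a difference of 2-fold or more. As a description, 1, 7, 8 and 8 of the 10 genes met this rule as higher at 30 min, 2 h, 5 h and 11 days. The shares of all 20811 tested genes called higher were 0.36%, 1.9%, 7.7% and 6.96% at the same times, and nothing is read from the difference, since these contrasts were known when the genes were chosen. The median log2 fold change of the 10 genes was 0.53, 1.89, 2.92 and 2.21, and that of all tested genes was -0.01 at each time. All 3 libraries with PSK lay above all 3 of untreated tpst in 5, 9, 9 and 9 of the 10 genes. The same held for 13.3%, 21.3%, 30.3% and 28.7% of all tested genes, and nothing is read from this. In either direction, 25.3%, 41.7%, 60.6% and 55.9% of all tested genes had groups that did not overlap. The shoot is a mixture of cells, and more or fewer cells of a type and more or less RNA per cell cannot be told apart in such libraries.

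**Figure D2:**
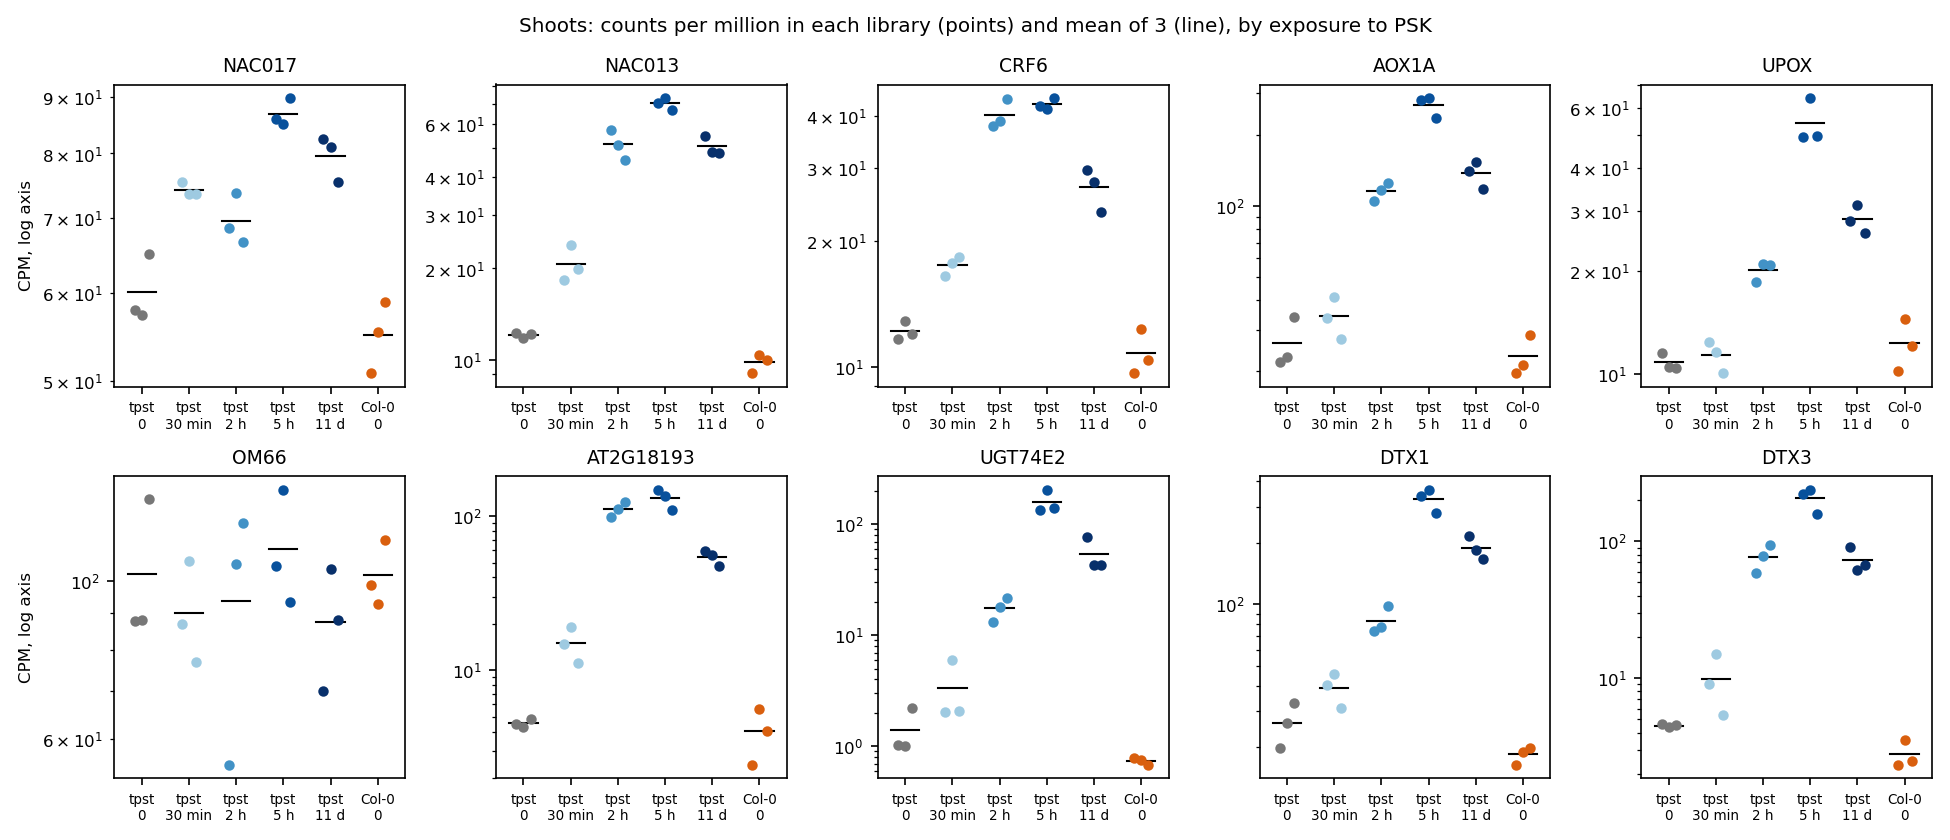
CPM on a log axis in each shoot library (points, 3 per group) with the group mean (line), for untreated tpst, tpst after 30 min, 2 h, 5 h and 11 days of PSK, and untreated Col-0. For each gene the 5 h group has the highest mean of the 6, although the libraries of OM66 overlap between all groups.

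Among the regulators, NAC013 had 12.3, 11.8 and 12.1 CPM in untreated tpst shoots, 18.4, 23.9 and 20.0 at 30 min, 57.3, 51.2 and 45.7 at 2 h, 70.4, 72.9 and 66.8 at 5 h, and 54.9, 48.6 and 48.2 at 11 days. Its groups with PSK did not overlap untreated tpst at any time, and its libraries agreed closely within each group. The log2 fold changes over untreated tpst were 0.77 (SE 0.10), 2.07 (SE 0.10), 2.52 (SE 0.11) and 2.05 (SE 0.10) from 30 min to 11 days. NAC017, which acts upstream of NAC013, differed less. It had 85.9, 85.0 and 89.7 CPM at 5 h, its highest group, against 57.9, 57.3 and 64.9 CPM in untreated tpst shoots, with a log2 fold change of 0.52 (SE 0.07). The other 9 libraries with PSK held between 66.6 and 82.4 CPM. All 12 were above untreated tpst, by less than the 2-fold difference that a call needs.

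CRF6, an AP2/ERF transcription factor of the cytokinin response factor family, had 11.7, 12.9 and 11.95 CPM in untreated tpst shoots. It had 16.5, 17.7 and 18.3 CPM at 30 min, 37.7, 38.9 and 43.7 at 2 h, 42.3, 41.4 and 44.0 at 5 h, and 29.6, 27.8 and 23.5 at 11 days. CRF6 therefore stood almost as high at 2 h as at 5 h, with log2 fold changes of 1.71 (SE 0.10) and 1.79 (SE 0.10), and the step between these times was 0.08 (SE 0.10). For NAC013 this step was 0.45 (SE 0.10), whereas for AOX1A, UPOX, DTX1 and DTX3 it lay between 1.21 and 1.97.

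AOX1A had 22.0, 23.1 and 33.8 CPM in untreated tpst shoots, 33.5, 41.3 and 27.5 at 30 min, 105, 117 and 125 at 2 h, 281, 285 and 236 at 5 h, and 141, 154 and 118 at 11 days. The 30 min libraries overlapped untreated tpst and all later ones lay above it. The log2 fold changes were 0.36 (SE 0.18), 2.12 (SE 0.18), 3.33 (SE 0.19) and 2.37 (SE 0.18), the third being a 10.0-fold difference.

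UPOX encodes a small mitochondrial protein known for its induction by oxidative stress. It had 11.5, 10.5 and 10.4 CPM in untreated tpst shoots, 12.4, 11.6 and 10.1 at 30 min, 18.6, 21.0 and 20.9 at 2 h, 49.4, 64.2 and 49.6 at 5 h, and 28.1, 31.2 and 25.8 at 11 days. Its log2 fold change was 0.88 (SE 0.13) at 2 h, below the fold of 2, and 2.32 (SE 0.13) at 5 h.

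OM66 and AT2G18193 both encode AAA-type ATPases, OM66 one of the outer mitochondrial membrane, and they differed in shoots. OM66 had between 55.2 and 134 CPM in the 12 libraries with PSK, against 87.9, 88.1 and 130.3 CPM in untreated tpst shoots. Its log2 fold changes were -0.19, -0.14, 0.10 and -0.24 from 30 min to 11 days, with an SE of 0.26 at each time, and its libraries overlapped untreated tpst throughout. AT2G18193 had 4.46, 4.30 and 4.79 CPM in untreated tpst shoots, 14.8, 19.1 and 11.2 at 30 min, 98.3, 112 and 124 at 2 h, 148, 135 and 109 at 5 h, and 59.1, 55.6 and 47.8 at 11 days. At 30 min its log2 fold change was already 1.72 (SE 0.23). Its 2 h and 5 h libraries overlapped, with log2 fold changes of 4.604 (SE 0.24) at 2 h and 4.84 (SE 0.24) at 5 h.

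UGT74E2, which glucosylates the auxin precursor indole-3-butyric acid, had the highest fold change of the 10 genes at 5 h. It had 1.03, 1.01 and 2.22 CPM in untreated tpst shoots, 2.05, 6.004 and 2.10 at 30 min, 13.1, 17.996 and 21.602 at 2 h, 134, 205 and 139.9 at 5 h, and 77.4, 43.4 and 43.0 at 11 days. The log2 fold changes were 1.24 (SE 0.51), 3.58 (SE 0.45), 6.76 (SE 0.46) and 5.21 (SE 0.45). The step from 2 h to 5 h alone was 3.18 (SE 0.36), the largest of the 10 genes.

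DTX1 and DTX3 encode efflux carriers of the MATE family. DTX1 had 19.8, 26.4 and 33.0 CPM in untreated tpst shoots, 40.1, 45.4 and 31.2 at 30 min, 73.8, 77.2 and 98.1 at 2 h, 336, 362 and 280.2 at 5 h, and 216, 184 and 167 at 11 days. DTX3 had 4.603, 4.39 and 4.51 CPM in untreated tpst shoots, 9.09, 15.1 and 5.40 at 30 min, 58.8, 77.8 and 94.0 at 2 h, 223, 238 and 159 at 5 h, and 90.1, 61.3 and 66.7 at 11 days. DTX3 was already 16.9-fold higher at 2 h, where DTX1 was 3.11-fold higher, and at 5 h the log2 fold changes were 5.50 (SE 0.34) for DTX3 and 3.61 (SE 0.19) for DTX1. The pair and their neighbor DTX4 are close paralogs, as are AT2G18193 and AT2G18190, so reads of one may be counted to another. DTX1 also overlaps AT2G04039 on the opposite strand by 297 bases, and the strand setting of the counting is not given in the sources used here.

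The 11 day group was lower than the 5 h group in all 10 genes, by 0.13 (SE 0.07) on the log2 scale in NAC017 and by 1.55 (SE 0.33) in UGT74E2. The shoots after 11 days were also set against untreated Col-0, where as a description the same 8 genes met the call rule as higher, as did 10.5% of all tested genes, and nothing is read from this. Their log2 fold changes over Col-0 ran from 1.19 (SE 0.13) for UPOX to 6.19 (SE 0.50) for UGT74E2. Genes of other lists were called at the same times. Of 6 clock genes that peak around dawn, 0, 5, 6 and 6 were called higher in shoots across the exposures from 30 min to 11 days, and in roots 0, 4, 6 and 6. Of 10 hypoxia response genes the counts were 6, 5, 5 and 5 in shoots, and 1, 3, 3 and 2 in roots. The clock gene LHY was also higher in untreated tpst shoots than in Col-0 shoots (log2 fold change 1.96, SE 0.11, adjusted p = 1.3e-09 by edgeR). In roots the log2 fold changes of the 6 dawn genes between these genotypes ran from -0.32 for RVE1 to 0.26 for LHY, and none was called. The hour of collection of each group is not given in the sources used here, and the part of clock time or oxygen supply in these results was not tested.

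**Figure D3:**
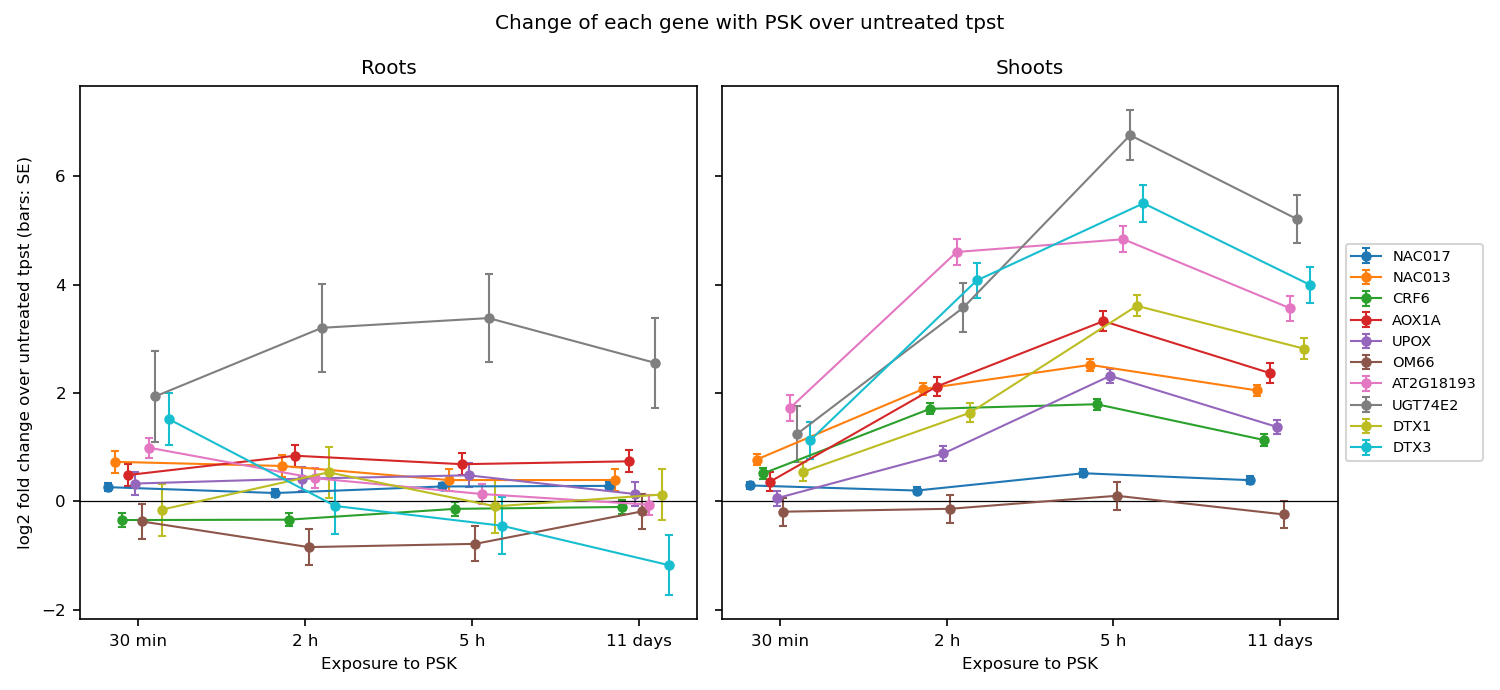
Log2 fold change of each gene over untreated tpst with its SE (bars) after 30 min, 2 h, 5 h and 11 days of PSK, in roots (left) and shoots (right) on one scale. In shoots 8 genes peak at 5 h between 1.79 and 6.76, and in roots UGT74E2 is the gene that stays above 1.9 at each time.

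In roots UGT74E2 was the only one of these genes called after the same exposures, at 2 h, 5 h and 11 days. No gene was called at 30 min, when 0.454% of 21358 tested genes were, although 7 of the 10 had an unadjusted p under 0.05 in edgeR, as did 14.7% of tested genes. DESeq2 called 1 of the 10 and 0.965% of the genes it tested. At 2 h, 5 h and 11 days 1 gene was called each time, UGT74E2, where 0.379%, 1.35% and 1.1% of tested genes were called higher. Libraries with PSK lay wholly above untreated tpst in 6, 5, 4 and 3 genes and wholly below it in 1, 2, 1 and 1, where 23.9%, 33.1%, 31.4% and 33.8% of tested genes had groups that did not overlap. Without the fold minimum, 1, 2, 3 and 3 genes passed, among 1.17%, 4.26%, 19% and 16% of tested genes. The median log2 fold change of the 10 genes in roots was 0.41, 0.42, 0.20 and 0.13 in the order of the exposures.

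**Figure D4:**
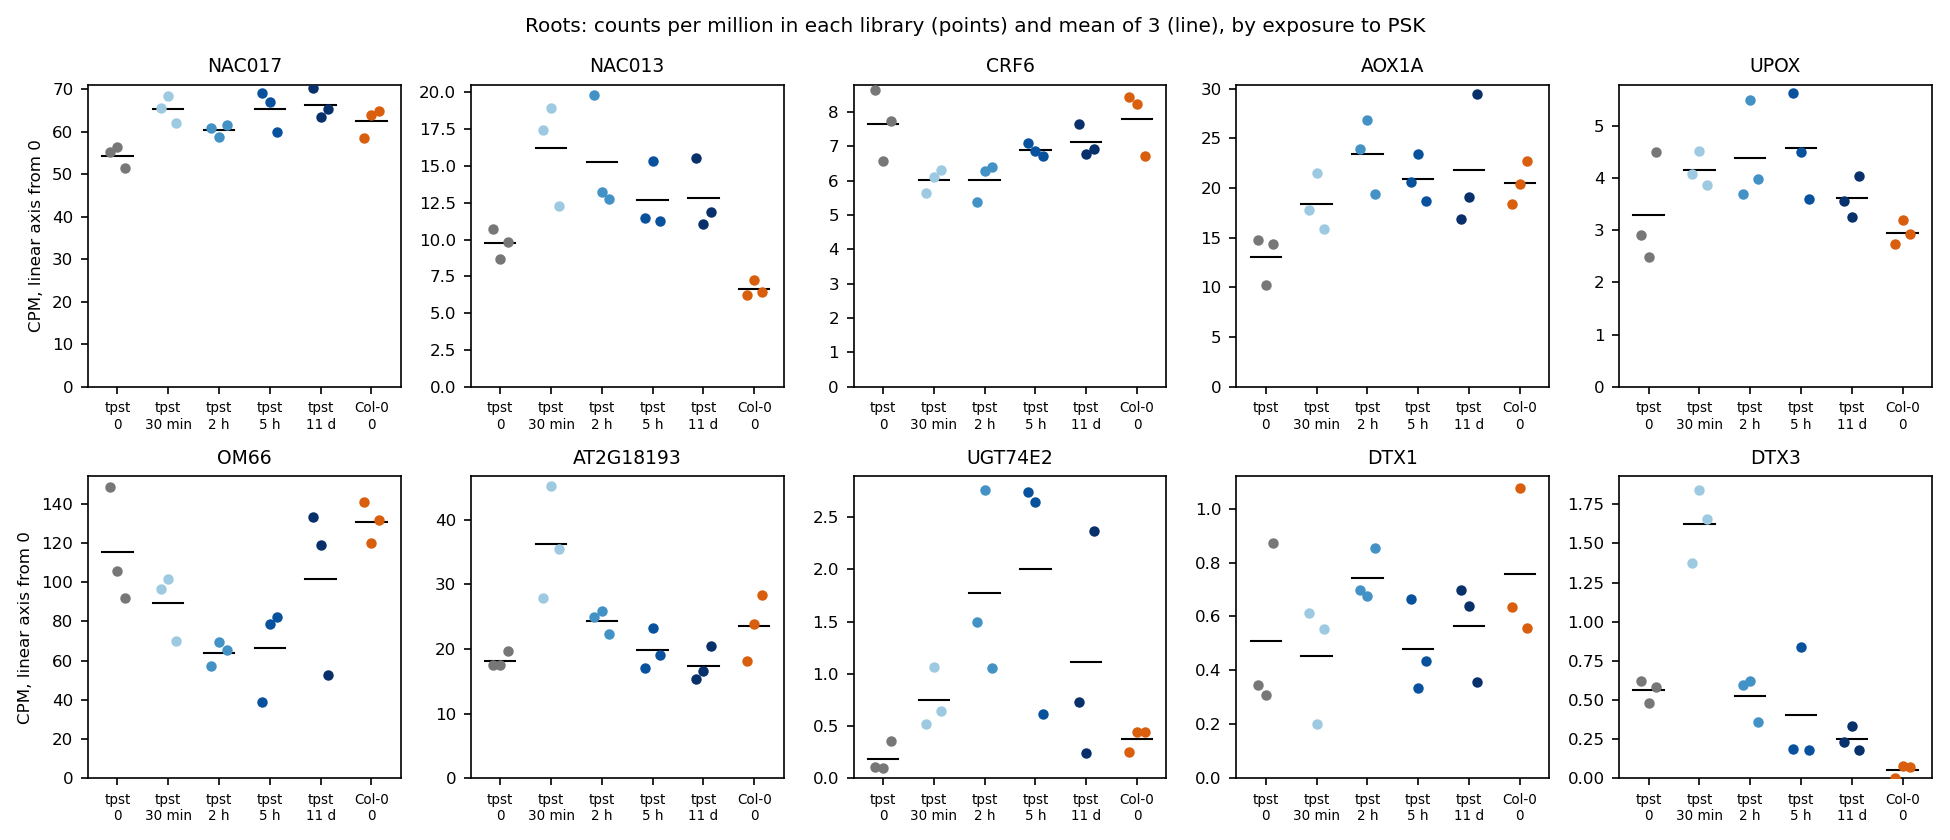
CPM on a linear axis from 0 in each root library (points, 3 per group) with the group mean (line), for untreated tpst, tpst after 30 min, 2 h, 5 h and 11 days of PSK, and untreated Col-0. UGT74E2, DTX1 and DTX3 stay below 3 CPM, and AT2G18193, DTX3 and NAC013 have their highest group mean at 30 min.

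UGT74E2 was rare in roots. It had 3, 3 and 11 counts in untreated tpst roots (0.104, 0.103 and 0.356 CPM), and 0.521, 1.07 and 0.645 CPM at 30 min, 1.497, 2.76 and 1.05 at 2 h, 2.74, 2.65 and 0.616 at 5 h, and 0.733, 0.243 and 2.37 at 11 days. The highest untreated value was in the third library, the one with the high photosynthesis sum. Summed over 3 libraries there were 175 counts at 2 h against 17 in untreated tpst, a ratio of 9.53 with a 95% interval of 5.78 to 16.7, and 170 counts at 5 h, a ratio of 10.5 (6.38 to 18.5). Such intervals cover counting error only. By edgeR the log2 fold changes were 3.20 (SE 0.81, adjusted p = 0.0381) at 2 h, 3.38 (SE 0.81, adjusted p = 0.00947) at 5 h and 2.55 (SE 0.82, adjusted p = 0.0466) at 11 days. The call at 5 h held without any 1 of its 6 libraries. The call at 2 h was lost without any 1 of its 6 libraries, with adjusted p between 0.0573 and 0.134, and that at 11 days was lost on leaving out any 1 of them but the second 11 day library, with adjusted p between 0.0572 and 0.290. Without the third untreated library the log2 fold changes were 4.04 at 2 h and 3.40 at 11 days, and without the third 11 day library that at 11 days was 1.32.

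AT2G18193, far more abundant in roots, had 17.5, 17.5 and 19.6 CPM in untreated tpst roots, 28.0, 45.3 and 35.5 at 30 min, 25.0, 25.8 and 22.3 at 2 h, 17.1, 23.3 and 19.1 at 5 h, and 15.3, 16.6 and 20.4 at 11 days. Its root libraries lay above untreated tpst at 30 min and 2 h and overlapped it later. At 30 min the log2 fold change was 0.99 (SE 0.18, adjusted p = 0.0142 by edgeR), just under a fold of 2. DTX3 had 45, 55 and 72 counts in roots at 30 min, against 18, 14 and 18 in untreated tpst roots, a ratio of 2.88 (2.09 to 4.03), but it did not pass the test across all genes (log2 fold change 1.52, SE 0.48, adjusted p = 0.152 by edgeR). At 11 days DTX3 had 7, 11 and 7 counts in roots.

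AOX1A had 14.7, 10.2 and 14.3 CPM in untreated tpst roots, 17.8, 21.5 and 15.8 at 30 min, 24.0, 26.8 and 19.4 at 2 h, 20.6, 23.4 and 18.7 at 5 h, and 16.9, 19.1 and 29.4 at 11 days. Every library with PSK was above all 3 untreated ones, and the differences were small. By edgeR the log2 fold changes were 0.84 (SE 0.20, adjusted p = 0.0307) at 2 h, 0.69 (SE 0.20, adjusted p = 0.0273) at 5 h and 0.74 (SE 0.20, adjusted p = 0.0217) at 11 days, all below a fold of 2. NAC013 had 11.1 to 19.9 CPM in the 12 root libraries with PSK, against 8.66 to 10.7 CPM in untreated tpst roots, with log2 fold changes of 0.39 to 0.73 and an adjusted p of 0.0749 at the least. NAC017 was 0.27 (SE 0.07, adjusted p = 0.0140) higher on the log2 scale at 5 h and 0.28 (SE 0.07, adjusted p = 0.0131) at 11 days by edgeR. CRF6, UPOX, OM66 and DTX1 did not pass an adjusted p of 0.05 in roots at any time, and DTX1 stayed between 6 and 26 counts a library with PSK, against 9 to 27 in untreated tpst.

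The genotype comparison asks whether loss of the sulfotransferase alone altered these genes. In shoots none of the 10 was called between untreated tpst and Col-0, by edgeR or DESeq2, where edgeR called 5.55% and DESeq2 5.94% of all tested genes. Under edgeR 2 had an unadjusted p under 0.05, against 35.5% of tested genes, and both also had an adjusted p just under 0.05, as did 24.5% of tested genes without the fold minimum. These were DTX1, with 19.8, 26.4 and 33.0 CPM in tpst against 16.5, 19.0 and 19.8 CPM in Col-0 (log2 fold change 0.52, SE 0.18, adjusted p = 0.0491), and NAC013, with 12.3, 11.8 and 12.1 CPM in tpst against 9.04, 10.4 and 10.0 CPM in Col-0 (0.30, SE 0.11, adjusted p = 0.0482). Both were below a fold of 2.

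In roots 1 gene, DTX3, was called higher in untreated tpst than in Col-0, as were 2.95% of all tested genes. It had 18, 14 and 18 counts in tpst against 0, 2 and 2 counts in Col-0, a ratio of 11.7 with an interval of 4.31 to 44.8, and a fitted log2 difference of 3.41 (SE 0.74, adjusted p = 0.00383 by edgeR). The call held without any 1 of the 6 libraries, and the gene was not tested under the stricter filter. AOX1A went the other way, with 14.7, 10.2 and 14.3 CPM in tpst roots against 18.4, 20.4 and 22.7 CPM in Col-0 roots, which by edgeR was -0.67 on the log2 scale (SE 0.20, adjusted p = 0.0259). NAC017 was lower by less (-0.23, SE 0.07, adjusted p = 0.0316 by edgeR). An adjusted p under 0.05 without the fold minimum was reached by these 3 genes and by 22.2% of all tested genes. All comparisons with PSK and of genotype share the untreated tpst libraries, so a high or low value there enters both.

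After 11 days of PSK, AOX1A in roots stood at 16.9, 19.1 and 29.4 CPM, against 18.4, 20.4 and 22.7 CPM in Col-0 (log2 fold change 0.06, SE 0.20, adjusted p = 0.846 by edgeR). DTX3 was the 1 gene called against Col-0, at 7, 11 and 7 counts against 0, 2 and 2 (log2 fold change 2.23, SE 0.81, adjusted p = 0.0487 by edgeR), where 3.62% of tested genes were called higher. That call was lost without any 1 of the 6 libraries. NAC013 had 15.6, 11.1 and 11.9 CPM against 6.23, 7.26 and 6.42 CPM in Col-0, which by edgeR came to 0.92 on the log2 scale (SE 0.20, adjusted p = 0.00357), just below the fold minimum. Without that minimum 2 of the 10 genes and 28% of tested genes passed.

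Untreated Col-0 shows how the genes stand in each tissue without the mutation or added PSK. By edgeR 3 genes were lower in Col-0 roots than in Col-0 shoots and 1 was higher, where 19.8% and 21.5% of 22303 tested genes were. DTX3 had 0, 2 and 2 counts in roots against 45, 85 and 47 counts in shoots (log2 fold change -5.74, SE 0.69, adjusted p = 2.35e-08). DTX1 had 0.636, 1.08 and 0.557 CPM in roots against 16.5, 19.0 and 19.8 CPM in shoots (-4.62, SE 0.28, adjusted p = 1.58e-14). Both carriers were thus far more abundant in untreated shoots. UPOX had 2.73, 3.19 and 2.93 CPM in roots against 10.2, 14.5 and 12.1 CPM in shoots (-2.06, SE 0.19, adjusted p = 4.81e-11). AT2G18193 was the gene higher in roots, with 18.1, 23.9 and 28.4 CPM against 2.44, 5.63 and 4.003 CPM in shoots (2.52, SE 0.23, adjusted p = 1.13e-10). AOX1A, OM66 and UGT74E2 did not pass an adjusted p of 0.05, and CRF6, NAC013 and NAC017 passed it with less than a fold of 2. Together 7 of the 10 genes had an adjusted p under 0.05, against 71.2% of tested genes.

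The change with PSK in roots minus that in shoots was estimated in the fit of all 36 libraries. As a description, it met the call rule as negative for 5 genes at 2 h and for 7 at 5 h and at 11 days, where 0.892%, 3.71% and 3.73% of tested genes did. Nothing is read from these shares, since the difference holds the shoot contrasts. For UGT74E2 the difference at 5 h was -3.42 (SE 1.36), which did not meet the call rule in edgeR. DESeq2 called it at 5 h (-3.39) and at 11 days (-2.69). For the genotype no gene was called by edgeR, where 6.62% of tested genes were, and 4 had an unadjusted p under 0.05, against 30.4% of tested genes. DESeq2 called 2 of the 10 and 8.03% of the genes it tested. AOX1A had a difference of -0.83 (SE 0.29, adjusted p = 0.0422 by edgeR) and NAC017 one of -0.33 (SE 0.10, adjusted p = 0.0174 by edgeR). These 2 are the genes past an adjusted p of 0.05 without the fold minimum, as were 17.6% of tested genes. The seedlings of each replicate were divided into shoot and root, so shoot and root libraries share seedlings. The fit treats these libraries as separate samples, and its p-values leave the sharing out.

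Levels of different genes were compared as FPKM, which divides by gene length. In untreated tpst shoots the order was OM66 with 38.1 FPKM, NAC017 with 22.6, AOX1A with 14.8, UPOX with 14.6, DTX1 with 14.2, CRF6 with 7.86, NAC013 with 6.11, DTX3 with 2.43, AT2G18193 with 2.41 and UGT74E2 with 0.800. AOX1A, UPOX and DTX1 differed there by less than their SDs, as did DTX3 and AT2G18193. After 5 h of PSK the order began with DTX1 at 175 ± 22.3 FPKM, AOX1A at 149.6 ± 15.3, DTX3 at 111 ± 22.5, UGT74E2 at 89.7 ± 21.63, UPOX at 73.1 ± 10.9 and AT2G18193 at 69.7 ± 10.9 FPKM (SD, n = 3), and of these neighbors only AOX1A and DTX3 were apart by more than the sum of their SDs. OM66, first without PSK, was seventh with 41.2 FPKM, above NAC013 with 35.3, NAC017 with 32.7 and CRF6 with 27.5. The most weakly expressed of the genes in untreated shoots, UGT74E2, was thus among the higher ones after 5 h.

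Within a gene, the highest of the 12 group means was that of shoots at 5 h for 9 genes, and that of Col-0 roots for OM66. The highest group mean was 4025 times the lowest in DTX3, 849.98 times in UGT74E2 and 717 times in DTX1. Their lowest group means were 0.0513 CPM in Col-0 roots for DTX3 (4 counts in all), 0.188 CPM in untreated tpst roots for UGT74E2 and 0.455 CPM in roots at 30 min for DTX1. The ratio was 1.60 in NAC017 and 2.04 in OM66. The 5 h shoot libraries did not overlap the second highest group in AOX1A, UPOX, UGT74E2, DTX1, DTX3, NAC013 and NAC017, and did so in AT2G18193 and CRF6. As a description, Pearson r of log2 CPM over the 18 shoot libraries was 0.82 to 0.99 in the 28 pairs among the 8 genes other than OM66 and NAC017, with a median of 0.95. These 8 were picked after their values had been seen, and the libraries share the groups. Over the 18 root libraries the same pairs had r between -0.64 and 0.82, with a median of 0.15. NAC017 had a median r of 0.83 with the other genes in shoots, and OM66 had one of 0.03.

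Genes of related function were counted from lists drawn up with earlier results known, without the 10 genes themselves, so the counts below are a description. In shoots at 5 h, 12 of 13 other genes known to respond to respiratory chain inhibitors were called higher and none lower, with a median log2 fold change of 2.99. Among them were the glutathione transferases GSTU25 (5.23, SE 0.46) and GSTU24 (3.57, SE 0.18), the sulfotransferase SOT12 (4.11, SE 0.19), the carrier DTX4 (3.75, SE 0.29) and the mitochondrial chaperone HSP23.6 (3.56, SE 0.66). In roots at 5 h 1 of 12 tested was called higher, GSTU24 (1.38, SE 0.19, adjusted p = 0.00029 by edgeR), with a list median of 0.40. At 30 min, 2 h and 11 days, 1, 3 and 11 of the 13 were called higher in shoots.

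Genes listed under the alternative respiratory chain, which bypasses the proton pumps, differed among themselves. The list also holds PUMP1, a mitochondrial uncoupling carrier. In shoots at 5 h 5 of 11 tested genes were called higher and 1 lower. The NAD(P)H dehydrogenases NDA1 (2.73, SE 0.22), NDB4 (2.81, SE 0.37) and NDB3 (3.25, SE 0.91) were higher, and NDB1 and NDB2 were not called (0.08 and -0.30). Of the other alternative oxidases, AOX1B was higher (4.05, SE 0.78), with 1.55, 3.60 and 1.89 CPM at 5 h against 0.343, 0.0457 and 0.0396 CPM in untreated tpst. AT1G32350, listed as AOX3 and also known as AOX1D, was higher too (1.71, SE 0.55), and AOX1C was lower (-1.85, SE 0.30). In roots none of 9 tested genes of this list was called at 5 h. The nuclear subunits of the cytochrome chain and ATP synthase had a median log2 fold change of -0.06 over 23 genes in shoots at 5 h. The 1 call among them was the cytochrome c gene CYTC-2, which was higher (1.21, SE 0.13). After 11 days of PSK, SDH2-2 met the call rule as lower in shoots against untreated Col-0 (-1.10, SE 0.10).

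**Figure D5:**
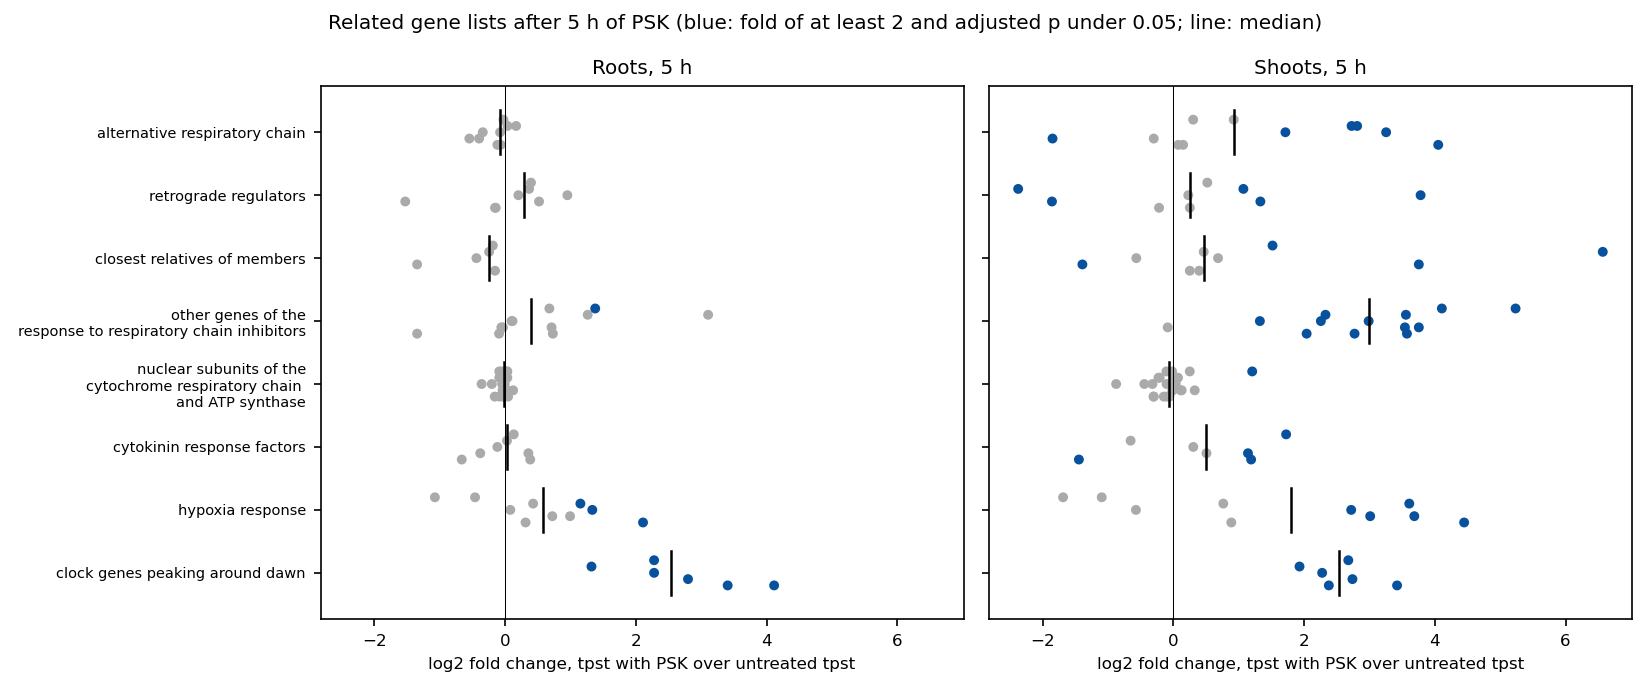
Log2 fold change of each tested gene of 8 related lists (points, without the 10 genes themselves) after 5 h of PSK in roots (left) and shoots (right), with the list median as a line and called genes in blue. In shoots 12 of 13 other inhibitor-responsive genes are blue and their median is 2.99, whereas the median of the respiratory chain subunits lies near 0. The 6 dawn clock genes are blue in both tissues.

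Among other regulators of retrograde signaling, 3 of 9 tested were called higher in shoots at 5 h and 2 lower. NAC053 (1.33, SE 0.10), RCD1 (1.07, SE 0.09), which binds NAC013, and WRKY63 (3.78, SE 0.45) were higher, and WRKY40 (-1.86, SE 0.39) and MYB29 (-2.37, SE 0.18) were lower. Of the other cytokinin response factors, CRF5 (1.72, SE 0.27), ERF069 (1.19, SE 0.23) and ERF070 (1.14, SE 0.14) were called higher, CRF1 was called lower (-1.45, SE 0.40), and CRF2, CRF3 and CRF4 were not called (0.51, 0.30 and -0.65). Of 9 tested close relatives of the 10 genes, 3 were called higher and 1 lower in shoots at 5 h, and in roots none of 5. AT2G18190, the tandem copy of AT2G18193, had 8.94, 9.68 and 12.6 CPM at 2 h against 0.245, 0 and 0.0396 CPM in untreated tpst, whereas UGT74E1 (0.46, SE 0.45) and AT3G50940, next to OM66 (0.68, SE 0.35), were not called at 5 h. DTX6 was higher in untreated tpst shoots than in Col-0 shoots (1.27, SE 0.22, adjusted p = 0.000392 by edgeR).

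By Pearson r over the 36 libraries, with each tissue centred, the 5 genes whose log2 CPM was most like the mean of the 10 genes were SOT12, which is also in the inhibitor list (0.96), PGM (AT2G17280, 0.94), AT1G17960 (0.94), AT2G33590 (0.94) and FAB2 (AT2G43710, 0.94). SOT12 had 231 CPM at 5 h against 13.2 CPM in untreated tpst shoots, and 14.1 CPM at 5 h against 8.89 CPM in untreated tpst roots. FAB2, annotated as a plastid acyl carrier protein desaturase, had 862 CPM at 5 h against 290.1 CPM in untreated tpst shoots. Likeness of course across the same libraries says nothing of shared function or control.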

How the data were processed

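Gene expression was measured by RNA-seq of 36 libraries, 18 of shoots and 18 of roots. The authors enriched poly(A) RNA, mapped read pairs to TAIR10 using HISAT2 (v2.0.5) and obtained raw counts per gene from featureCounts (v1.5.0-p3). Their deposited tables hold these counts and FPKM values; the FPKM values were counts per gene length, scaled by a library total that was 81.4% to 119% of the summed counts. FPKM was used to set levels of different genes side by side and, as an alternative, for the order of groups. Replicates were independent according to the study, and 0 pairs of libraries held identical counts.

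Counts were tested in edgeR 4.0.16 (R 4.3.3) with the robust quasi-likelihood fit and TMM factors. One fit covered the 18 libraries of a tissue in 6 groups, and another all 36 for differences between tissues, after filterByExpr with a minimum of 10 counts. Adjusted p-values are Benjamini-Hochberg values over all genes of a fit, and the threshold was 0.05 with a fold minimum of 2. SE was derived as |log2 fold change| over the root of F. Log2 CPM for correlations used a prior count of 2. Intervals of count ratios are exact conditional ones at 95%.

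The 10 genes and all lists were chosen with earlier results of these data known. The genes named are the 10, from each list up to 3 with the smallest p (not all are printed), the alternative oxidases and cytokinin response factors, and the 5 of most similar pattern. Other list genes named were picked after their values were seen. The lists were the alternative respiratory chain, regulators of retrograde signaling, other inhibitor-responsive genes, nuclear respiratory subunits, cytokinin response factors, closest relatives, hypoxia response, dawn clock genes, photosynthesis markers and root markers. Promoter sequence came from the RefSeq TAIR10.1 genome, in whose annotation 32532 of 32548 nuclear genes and all 10 genes have the coordinates of the count table.

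The alternatives were RLE size factors, no filter, a minimum of 50 counts, the replicate number as a block, DESeq2 1.42.0, the compared libraries alone, no fold minimum, each library left out, 1000 upstream bases, and FPKM for the order of groups. Figures were drawn with matplotlib 3.10.9 in Python 3.11.15.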

Additional observations from a re-analysis of the deposited data

Results flagged for a closer look

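The difference between tissues in the change with PSK, roots minus shoots, met both parts of the call rule, the fold of 2 and the adjusted p, in 19 estimates, all of them negative. Each holds a shoot contrast that was known when the genes were chosen, so the values are a description. At 2 h they were -1.30 for AOX1A, -4.20 for AT2G18193, -4.18 for DTX3, -2.06 for CRF6 and -1.44 for NAC013. At 5 h they were -2.67 for AOX1A, -1.86 for UPOX, -4.73 for AT2G18193, -3.75 for DTX1, -5.96 for DTX3, -1.96 for CRF6 and -2.15 for NAC013. At 11 days they were -1.65 for AOX1A, -1.26 for UPOX, -3.64 for AT2G18193, -2.74 for DTX1, -5.20 for DTX3, -1.26 for CRF6 and -1.67 for NAC013. UPOX at 11 days was -0.97 without the third untreated tpst root library, which holds the high photosynthesis sum, and no longer reached a fold of 2.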

How the results depend on the processing

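Of 2437 values of single genes under the alternatives, 2332 kept their direction and their side of the call, 45 gained a call and 22 lost one. The other 38 changed sign without a call in either fit, at absolute log2 fold changes of at most 0.536. The number of the 10 genes called was 1 in shoots at 30 min, and became 2 with DESeq2 and 4 with no fold minimum. For untreated tpst against Col-0 shoots it was 0, and 2 with no fold minimum. In roots at 30 min it was 0, and 1 with DESeq2, RLE size factors, no filter, the stricter filter, the compared libraries alone or no fold minimum; the gene was AT2G18193 in each case but the compared libraries alone, where it was DTX3. In roots the count of 1 became 2 at 2 h, 3 at 5 h and 3 at 11 days with no fold minimum, and 0 at 11 days with no filter, with the compared libraries alone or with the replicate block. For untreated tpst against Col-0 roots the count of 1 became 3 with no fold minimum and 0 with the stricter filter, which does not test DTX3. For roots after 11 days against Col-0 it became 2 with no fold minimum and 0 with no filter, the stricter filter or the compared libraries alone. Between Col-0 roots and shoots the 4 calls became 7 with no fold minimum. For the genotype difference between tissues 0 became 2 with DESeq2, 2 with no fold minimum and 1 with the compared libraries alone. Smaller moves were 7 to 9 in shoots at 2 h, 8 to 9 in shoots at 5 h, at 11 days and at 11 days against Col-0, and 7 to 8 for the difference between tissues at 5 h, all with no fold minimum, and 7 to 8 for that difference at 5 h and at 11 days with DESeq2. Where a filter or threshold was not the change made, the cause was not tested.

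With each library left out in turn, the count ran from 1 to 2 in shoots at 30 min, 0 to 1 in roots at 30 min, 0 to 0 in roots at 2 h, 0 to 1 in roots at 11 days, 0 to 2 for roots after 11 days against Col-0, 0 to 1 for the genotype difference and 6 to 8 for the difference between tissues at 11 days. In the other comparisons it did not move. The replicate numbers were not used as pairs in the main fits. Deviations of same-numbered libraries correlated above 0.1 in 14 of 45 pairs of libraries in shoots (median 0.063). In roots they did so in 23 of 45 (median 0.103). For libraries of different numbers the median was -0.020 in shoots and -0.044 in roots. These values do not settle whether the numbers mark pairs. With the number as a block, the count in roots at 11 days was 0 in place of 1 (UGT74E2, log2 fold change 2.56, adjusted p = 0.0622), and the counts of the other comparisons stayed as they were. The motif was held by 6 genes in the shorter window and by 5 in the longer, and 9 genes were highest in shoots at 5 h in CPM and in FPKM. Depth limits the root values of UGT74E2, DTX1 and DTX3, which rest on 0 to 98 counts a library.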
